A study of Mus musculus with 7 samples.

Results

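Receptors for neuropeptides and for hormones of the leptin, prolactin and growth hormone type were followed in single nuclei of the posterolateral cortical amygdala (plCoA), a cortical amygdala area that receives olfactory input. The set held 38 genes, chosen by symbol from the 32285 gene rows of the count tables, and left out the opioid receptors. Most members encode G protein-coupled receptors, which bind a peptide at the cell surface and signal through G protein alpha subunits that raise cyclic AMP, lower it or mobilise calcium. Prlr, Lepr and Ghr encode cytokine-type receptors for prolactin, leptin and growth hormone, which signal through Jak2 and STAT proteins. In the amygdala, peptide receptors are known for tuning arousal, stress, social and feeding responses, and neuron types are often told apart by the peptides and receptors they carry.

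Nuclei came from male C57BL6J mice that were 8 weeks old, and the compared groups were the anterior (aplCoA) and posterior (pplCoA) domain of the plCoA, with 3 biological replicates each. Each replicate was a pool of frozen tissue dissected from several mice, which had been housed singly with reduced sensory input on the day before and received no other treatment, and none carried a transgene. The nuclei were sorted by a DNA dye without selecting a cell type, and the counts of aplCoA replicate 1 were added up over its 2 libraries. As replicates are separate pools, the p-values measure the spread between pools and not between mice. In all, 46376 nuclei passed the filters, 27347 of aplCoA and 19029 of pplCoA, with 50812605 to 129624583 unique molecular identifiers (UMIs, 1 per captured transcript molecule) per library and a median of 5149.5 to 6750.5 UMIs per nucleus. Any pair of libraries shared between 4 and 29 barcodes.

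Classes of nuclei were named from marker genes and were clustered without the 38 receptors. They comprised 20005 glutamatergic nuclei, 5126 GABAergic nuclei, 9764 astrocytes, 3641 oligodendrocyte precursor cells (OPCs), 295 newly formed oligodendrocytes (NFOLs), 1530 mature oligodendrocytes (MOLs), 2776 microglia, 264 macrophages, 1854 vascular leptomeningeal cells (VLMCs), 890 arachnoid barrier cells (ABCs) and 42 mural cells. A level below is the CPM, the UMIs of a gene out of every 1000000 UMIs of a class in a replicate, given as mean ± SD over 6 replicates unless stated. Longer genes give more intronic reads, so levels were compared within a gene and not between genes. Classes were ranked (highest, next or every class) only where every replicate held at least 20 nuclei. This left out macrophages and mural cells, with as few as 9 and 1 nuclei in a replicate, and the endothelial nuclei described below. Each class carried its own markers: over all pools 6 glutamatergic markers summed to 523 CPM in glutamatergic and 30.5 CPM in GABAergic nuclei, and 6 GABAergic markers to 11.5 and 1249 CPM. Markers of other classes were not absent. VLMCs summed to 1741 CPM for their own 5 markers and to 2637 CPM for 5 astrocyte markers, mostly Slc1a3 (1759 CPM) and Slc4a4 (629 CPM), with Aqp4 at 1.99 CPM against 318 CPM in astrocytes. ABCs held 3367 CPM of their own and 1224 CPM of astrocyte markers, with Aqp4 at 2.66 CPM, and macrophages 13465 CPM of their own and 2054 CPM of microglial markers. The pplCoA pools were not alike. In glutamatergic nuclei replicate 1 of pplCoA held 4.50%, 4.59% and 1.04% of its nuclei in clusters 2, 7 and 9, which held at most 0.63%, 0.042% and 0.0% of nuclei in the other pplCoA pools, and 2.60% in cluster 8 against 19.6% and 20.3%. The aplCoA pools differed too, with 16.1%, 33.3% and 7.16% of their glutamatergic nuclei in cluster 6. Each pool was therefore left out in turn. Receptor calls between domains in glutamatergic nuclei rose in number without pplCoA replicate 1. They fell without aplCoA replicate 1 or pplCoA replicate 2. Values without pplCoA replicate 1 are given for some receptors.

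The 3 cytokine-type hormone receptors differed in the classes that carried them. Lepr, the leptin receptor, reached 620 ± 101 CPM in VLMCs, the fibroblast-like cells of the brain's covering. The next class was glutamatergic nuclei at 3.54 ± 0.377 CPM, a ratio of 175. In the 6 pools VLMCs held 485, 794 and 602 CPM in aplCoA and 628, 638 and 575 CPM in pplCoA, so the domains overlapped and every pool lay far above every other ranked class. Neurons gave 18.3% of all Lepr UMIs. Such shares are read beside the UMIs of all genes, most of which came from neurons. Glutamatergic and GABAergic nuclei held 267247736 and 45025213 UMIs, against 34931306 in astrocytes, 15591002 in OPCs and 7033833 in VLMCs. Ghr, the growth hormone receptor, was widespread, with 433 ± 27.8 CPM in astrocytes, 384 ± 86.1 in ABCs and 347 ± 36.0 in VLMCs, and the ranges of neighbours in that order overlapped. Its level was 169 ± 9.64 CPM in OPCs and 6.48 ± 2.26 in microglia, and glutamatergic and GABAergic nuclei held 128 ± 12.4 and 96.4 ± 10.1 CPM. Prlr, the prolactin receptor, differed from both in that 98.2% of its UMIs came from neurons.

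Several peptide receptors had their highest mean level in a glial class. Neurons gave 7.09% of all UMIs of Ntsr2 and 35.1% of those of Calcrl. They gave more of the others, with 61.5% for Adcyap1r1, 51.2% for Vipr2 and 81.7% for Sstr1. As neurons held most UMIs of all genes, such a share does not by itself mark a receptor as enriched in neurons. Ntsr2, a neurotensin receptor known from astrocytes, held 236 ± 41.0 CPM in astrocytes against 8.61 ± 1.94 in OPCs, the next class. Calcrl, which forms the calcitonin gene-related peptide and adrenomedullin receptors together with Ramp proteins, was highest in OPCs. Its level was 272 ± 29.6 CPM in OPCs, 87.6 ± 32.0 in NFOLs and 1.38 ± 1.19 in MOLs, and the order from precursor to mature cell held in 6 of 6 replicates at each step. The 20 nuclei with endothelial markers were set aside from the classes after the clusters were seen. They held 24 Calcrl UMIs in 12 nuclei, or 136 CPM. The exact Poisson 95% interval, counting error only, was 87.2 to 202 CPM and included the NFOL mean. These nuclei summed to 3752 CPM for 5 endothelial markers. They also held 408 CPM of glutamatergic, 193 CPM of GABAergic and 414 CPM of microglial markers, so the Calcrl level is not that of endothelial cells alone. Adcyap1r1, the receptor for the peptide PACAP, followed the same order in 6 of 6 replicates, with 71.5 ± 11, 30.1 ± 3.40 and 5.17 ± 3.31 CPM, and stood at 83.8 ± 9.26 CPM in astrocytes, whose range overlapped that of OPCs. Vipr2, a receptor shared by VIP and PACAP, held 20.4 ± 2.94 CPM in OPCs and 0.134 ± 0.328 in MOLs. The somatostatin receptor Sstr1 was also highest in OPCs, at 9.43 ± 2.78 CPM, above GABAergic nuclei at 3.87 ± 1.15 CPM in 6 of 6 replicates. Barcodes under 100 UMIs, which hold free RNA, gave a mean of 8.78 CPM of Sstr1, close to the OPC level.

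Vipr1 and Rxfp1 had their highest mean in microglia, where Calcrl also stood at 73.6 ± 13.8 CPM. Vipr1, a VIP receptor known from immune cells, stood at 17.8 ± 2.90 CPM in microglia and 14 ± 2.44 in glutamatergic nuclei, with overlapping ranges, against 0.482 ± 0.358 in astrocytes. Rxfp1, the relaxin receptor, stood at 14.7 ± 3.53 CPM in microglia, 10.5 ± 4.14 in GABAergic and 9.03 ± 5.76 in glutamatergic nuclei, with overlapping ranges and microglia above GABAergic nuclei in 4 of 6 replicates. The annotation places a further transcript, Gm26984, on the same strand within the span of Rxfp1, as it does Gm42558 for Rxfp2, and reads shared by both were not resolved here. Npy1r, a receptor for neuropeptide Y, was highest in the coverings of the brain, with 57.8 ± 18.1 CPM in VLMCs and 35.8 ± 16.9 in ABCs, which overlapped, against 13.5 ± 2.69 in GABAergic nuclei, above which ABCs stood in 5 of 6 replicates with overlapping ranges.

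**Figure D1:**
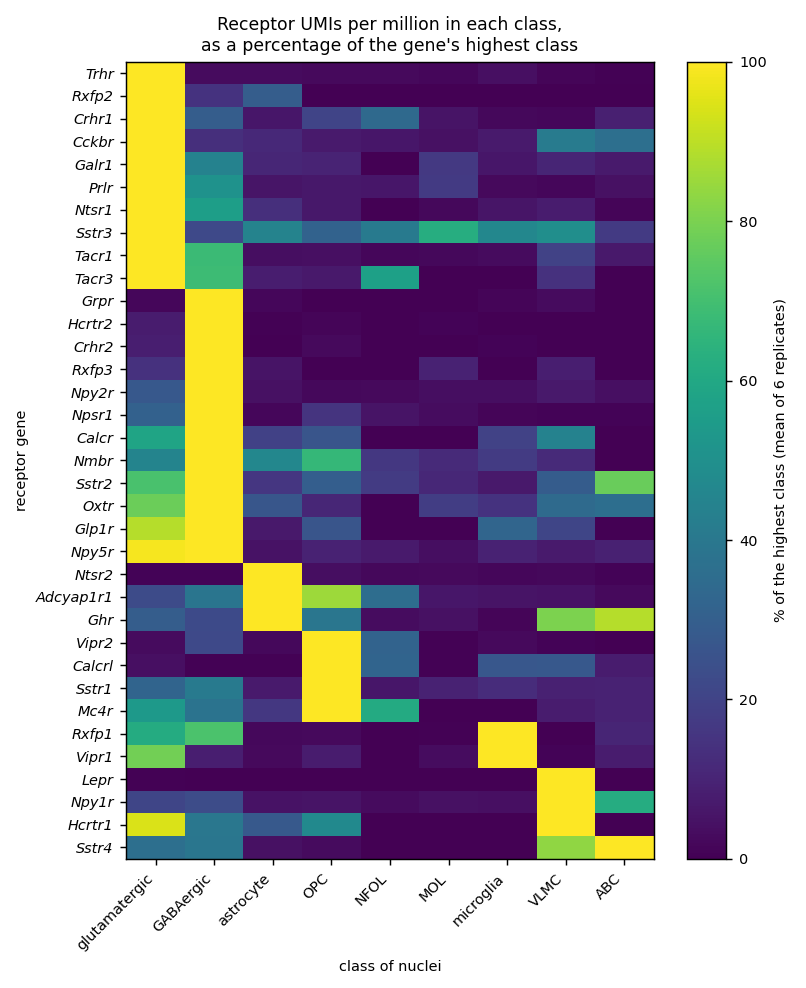
Heat map of 35 receptors (rows) in 9 classes of nuclei (columns), coloured by the mean CPM over 6 replicates as a percentage of the gene's highest class. Lepr is bright in VLMCs alone (620 CPM), Ntsr2 in astrocytes (236 CPM) and Calcrl in OPCs (272 CPM), and 22 of the 35 receptors are brightest in a neuron class.

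At the other end, 3 members were close to absent. Avpr1a, the vasopressin receptor, gave 18 UMIs over all classes, the cholecystokinin receptor Cckar gave 6, and the melanocortin receptor Mc3r gave 3. Oxtr, the oxytocin receptor, gave 787 UMIs, with 2.98 ± 0.404 CPM in GABAergic and 2.31 ± 0.468 in glutamatergic nuclei. The free RNA of the same libraries, read from barcodes under 100 UMIs, held more Oxtr, at 8.97 CPM, so the nuclear level lay below that of the background RNA, and VLMCs held 1.04 ± 0.868 CPM. Of the 35 members with at least 100 UMIs, 7 were higher in free RNA than in every class. Beside Oxtr these were Sstr3, Mc4r, Hcrtr1 and Glp1r, with 5.24, 1.64, 1.67 and 1.00 CPM in free RNA against 1.43, 0.596, 0.699 and 0.409 CPM in glutamatergic nuclei, and by smaller margins Cckbr (20.8 CPM) and Sstr2 (12.2 CPM). Some receptors that were highest in another class also lay below free RNA in neurons. Among them were Npy1r (26.2 CPM in free RNA), Lepr (10.1 CPM) and Adcyap1r1 (46.9 CPM), below it in both neuron classes. Npy2r, at 12.6 CPM in free RNA, lay below it in glutamatergic nuclei (6.07 CPM) but not in GABAergic nuclei (22.0 CPM). The part of free RNA in the counts of these receptors was not tested.

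Glutamatergic and GABAergic nuclei were compared within each pool. With both classes of each pool in one edgeR quasi-likelihood fit, 35 members were tested and 24 passed (Benjamini-Hochberg adjusted p under 0.05), which is 68.6% of them beside 63.2% of all genes tested, a similar share. Among the 24, 10 were higher in GABAergic nuclei (32.1% of all genes) and 14 in glutamatergic nuclei (31.0%). Grpr, the receptor for gastrin-releasing peptide, showed the widest gap, with 11.8 ± 3.23 CPM in GABAergic and 0.192 ± 0.0797 in glutamatergic nuclei (log2 difference 5.65 ± 0.16 SE, adjusted p = 1.54e-09). Hcrtr2, an orexin receptor, held 106 ± 11.9 CPM in GABAergic nuclei against 8.23 ± 0.524 (3.50 ± 0.08, adjusted p = 4.74e-10). Crhr2, a receptor for urocortins, held 6.53 ± 2.03 CPM against 0.551 ± 0.144 (3.41 ± 0.20, adjusted p = 1.6e-07). Vipr2, the relaxin-3 receptor Rxfp3, Npsr1 (the neuropeptide S receptor), Npy2r and Nmbr (the neuromedin B receptor) followed with log2 differences of 2.70, 2.64, 1.79, 1.76 and 1.06, and Adcyap1r1 and Sstr2 with 0.60 and 0.31.

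In the other direction Trhr, the receptor for thyrotropin-releasing hormone, held 56.8 ± 26.2 CPM in glutamatergic nuclei and 1.77 ± 0.809 in GABAergic nuclei (log2 difference -4.89 ± 0.19 SE, adjusted p = 8.87e-09). Vipr1 and the cholecystokinin receptor Cckbr differed by -3.27 ± 0.15 and -2.98 ± 0.14, with 14 ± 2.44 and 18.0 ± 1.77 CPM in glutamatergic nuclei. Rxfp2, Calcrl, Sstr3, Crhr1 (the main receptor for corticotropin-releasing hormone), Lepr, Hcrtr1, Galr1 (a galanin receptor) and Prlr lay between -2.68 and -1.14, and Ntsr1, Tacr1 (the substance P receptor) and Ghr between -0.83 and -0.59. Whichever pool was left out, 21 of the 24 kept an adjusted p under 0.05, while these fits called 57.6% to 60.5% of all genes. Without aplCoA replicate 1 the adjusted p was 0.186 for Prlr, 0.126 for Sstr2 and 0.0625 for Hcrtr1. DESeq2 called 22 of the 24, beside 58.5% of all genes, with 0.0719 for Sstr2 and 0.201 for Prlr. Without the block of pools the adjusted p was 0.111 for Hcrtr1 and 0.106 for Prlr. The Prlr difference depended on how classes were named, as classes set from marker UMIs alone gave a log2 difference of 0.14 (adjusted p = 0.74) in its place. The neuropeptide Y receptors Npy1r and Npy5r did not pass, with 12.1 ± 1.40 and 8.10 ± 0.831 CPM in glutamatergic and 13.5 ± 2.69 and 8.21 ± 1.74 in GABAergic nuclei.

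The receptors were then followed by cluster within each neuron class. Glutamatergic nuclei formed 14 clusters and GABAergic nuclei 12, and they are called by number and leading genes. The paper places glutamatergic types marked by Etv1 and Sim1 in regions next to the plCoA. It proposes that a type marked by Fign likely comes from the cortex-amygdala transition area. Clusters 10, 14 and 6 had these genes among their leading genes. Whether they are the same types, and so lie outside the plCoA, was not tested. Of 52 combinations of a receptor and a neuron class with at least 100 UMIs, 32 had a cluster at 3 times the class level or more, 17 of 32 in glutamatergic and 15 of 20 in GABAergic nuclei. Of all genes with at least 100 UMIs in the class, 14.9% and 9.14% had such a cluster, with no matching on level. Levels within clusters are descriptions without a test, since all genes but the members shaped the clusters. In glutamatergic nuclei Npsr1 was concentrated in cluster 9, led by Ebf2, with 275 ± 78.7 CPM over the 4 pools with at least 10 nuclei there, 17.0 times the class. That cluster held 2.98% of the glutamatergic nuclei and 40.8% of their Npsr1 UMIs. Cluster 2, led by Meis1, Ebf1 and Pbx3, held the highest levels of Rxfp1, Tacr1, Tacr3 (a neurokinin B receptor), Mc4r (a melanocortin receptor) and Calcr (the calcitonin receptor), with 69.5%, 38.9%, 42.8%, 49.5% and 44.9% of the UMIs of the class on 12.5% of its nuclei.

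Cluster 7, led by Adarb2, Gulp1 and Vwa5b1, was highest for Prlr at 66.6 ± 26.5 CPM (n = 4), for Galr1 at 14.6 ± 1.20 CPM (n = 4), for Crhr2 and for Hcrtr1. Cluster 8, led by Smoc1 and Moxd1, was highest for Trhr at 214 ± 39.3 CPM (n = 3) and for Npy2r at 36.4 ± 7.39 CPM (n = 3), 3.76 and 6.29 times the class. A Trhr UMI was seen in 79.8% of the nuclei of that cluster, at a median of 11636 UMIs, against 0.973% of microglia at a median of 3182 UMIs. Nmbr was concentrated in cluster 10, led by Grik3 and Etv1, with 19.3 ± 3.10 CPM (n = 4), 10.5 times the class. Vipr2 in glutamatergic nuclei came mainly from cluster 5, led by Mybpc1 and Rorb, which held 58.6% of its 169 UMIs. Cckbr, Sstr2, Npy5r and Lepr were spread across glutamatergic clusters, with no cluster at 3 times the class.

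In GABAergic nuclei Grpr lay almost wholly in cluster 3, led by Vip, which held 89.5% of the Grpr UMIs of the class on 16.1% of its nuclei, at 94.7 ± 29.1 CPM. Hcrtr2 was highest in cluster 10, led by Hapln1 and Vcan, at 825 ± 112 CPM, and next in cluster 2, led by 6530411M01Rik and containing Lamp5 among its leading genes, at 330 ± 19.5 CPM. A Hcrtr2 UMI was present in 92.0% of the nuclei of cluster 10, at a median of 6639.5 UMIs, against 0.180% of microglia. Vipr2 was concentrated in cluster 9, led by Hs3st4 and Mctp2, with 60.2 ± 11.7 CPM and 77.2% of its UMIs on 5.48% of the nuclei. The same cluster was highest for Tacr1 at 154 ± 14.9 CPM. Npsr1 was shared between cluster 7, led by Ptprk, at 224 ± 66.3 CPM (n = 4) and cluster 4, which has Sst among its leading genes, at 183 ± 62.1 CPM. Ghr was highest in cluster 2, at 299.7 ± 46.5 CPM, 3.05 times the class. Cluster 12, led by Foxp2 and Meis2 and made of 47 nuclei, was highest for Prlr, Crhr1 and Cckbr, at 8.46, 8.65 and 8.71 times the class, on 14, 10 and 8 UMIs. The study itself named GABAergic types after Npsr1 and Tacr1 in these nuclei, so these 2 genes are no independent markers here.

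**Figure D2:**
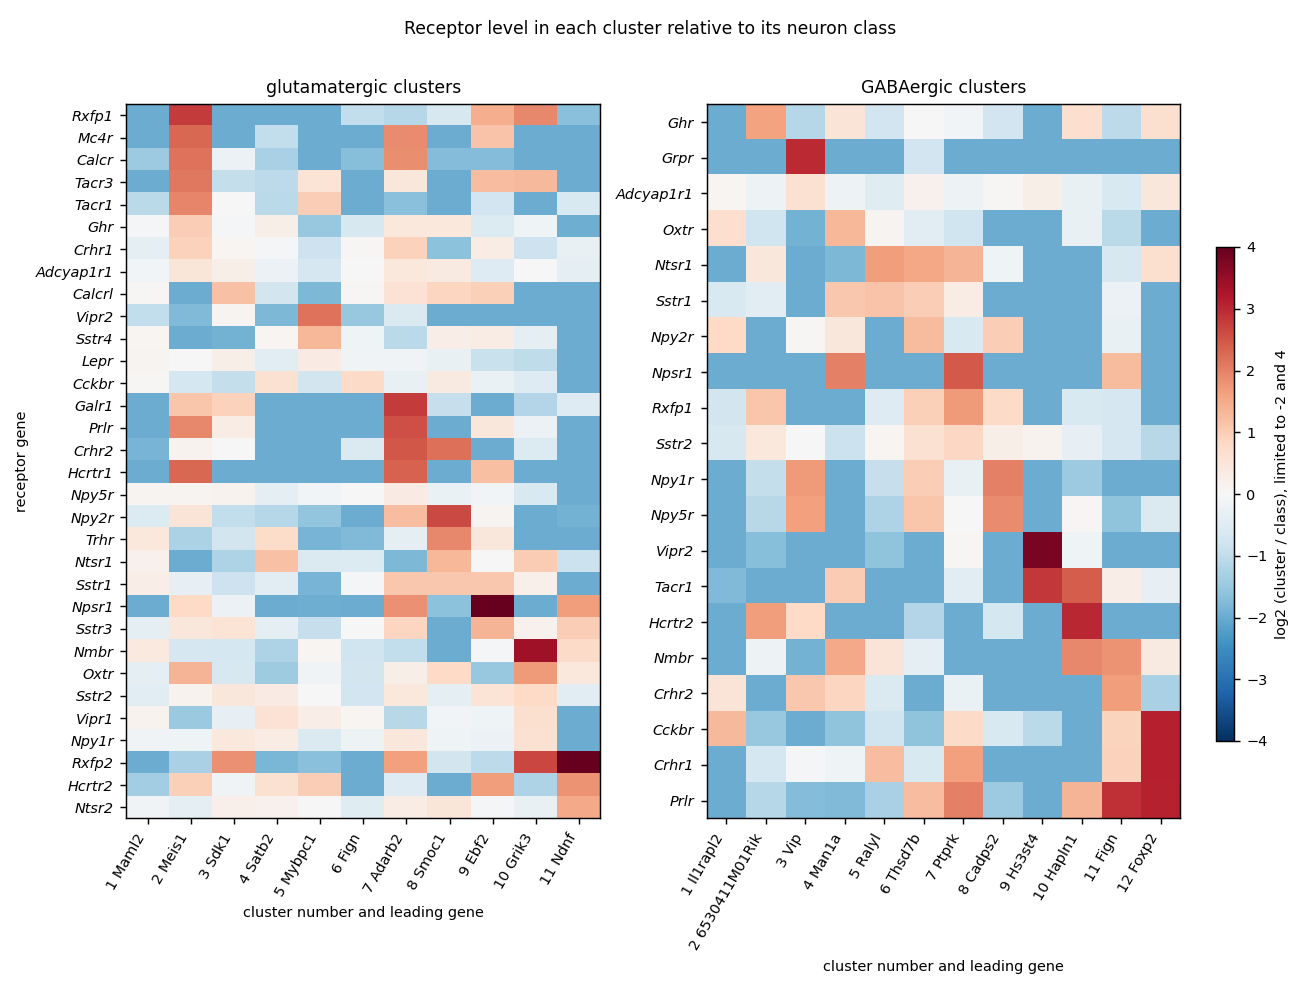
Heat maps of receptors (rows, members with at least 100 UMIs in the class) in glutamatergic and GABAergic clusters (columns, number and leading gene, clusters with at least 10 nuclei in 3 or more pools), coloured by log2 of the cluster level over the class level and limited to -2 and 4. Npsr1 is strongest in glutamatergic cluster 9 (17.0 times the class), Nmbr in glutamatergic cluster 10 (10.5 times), Grpr in GABAergic cluster 3 and Vipr2 in GABAergic cluster 9 (14 times).

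Npy1r and Npy5r, which both bind neuropeptide Y and lie next to each other on chromosome 8 in opposite orientation, were highest in the same GABAergic clusters. Both peaked in cluster 8, led by Cadps2 and Syt6, at 56.0 ± 17.3 and 30.9 ± 5.20 CPM, and came next in cluster 3, at 42.1 ± 8.05 and 26.5 ± 2.89 CPM. Over the 22 neuron clusters with at least 100 nuclei the log2 levels of the pair correlated with r = 0.92, a description of clusters that share libraries and depth. Within GABAergic nuclei, 18.5% ± 5.56 of those with a Npy1r UMI also had a Npy5r UMI, against 4.72% ± 1.23 of the others (n = 6 pools), with median depths of 6459.5 to 11548 and 6031 to 10404.5 UMIs and a microglial share of 0.324%. The first share was the higher in 6 of 6 pools. In glutamatergic nuclei the shares were 11.7% ± 2.87 and 9.41% ± 1.33, the first the higher in 4 of 6 pools, and nuclei with a Npy1r UMI were deeper, with median depths of 13104 to 16620 against 10370 to 14163 UMIs. Free RNA held 26.2 CPM of Npy1r, more than either neuron class, and 6.97 CPM of Npy5r, and its part in these shares was not tested. Because the pair moved together across clusters, the stretch around each start is shown from RefSeq (GRCm38.p6, 250 bases before to 50 after the start, 5′ to 3′ on the gene's strand). Npy1r lies at chr8:66697172-66697471 on the plus strand and Npy5r at chr8:66688045-66688344 on the minus strand, and capitals mark motif matches on either strand.
Npy1r: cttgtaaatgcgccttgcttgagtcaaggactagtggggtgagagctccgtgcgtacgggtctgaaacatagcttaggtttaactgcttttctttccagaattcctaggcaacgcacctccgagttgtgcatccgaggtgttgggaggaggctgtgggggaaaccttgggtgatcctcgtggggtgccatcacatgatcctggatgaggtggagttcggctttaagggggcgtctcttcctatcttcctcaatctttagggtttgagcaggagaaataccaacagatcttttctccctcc
Npy5r: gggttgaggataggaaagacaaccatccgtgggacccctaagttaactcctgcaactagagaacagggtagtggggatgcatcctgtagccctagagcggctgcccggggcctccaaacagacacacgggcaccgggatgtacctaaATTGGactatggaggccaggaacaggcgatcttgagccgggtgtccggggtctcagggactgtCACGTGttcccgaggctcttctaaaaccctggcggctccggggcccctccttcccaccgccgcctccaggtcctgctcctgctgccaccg
The windows start 9127 bases apart. The Npy5r window held 1 E-box (CACGTG), present in 7.17% of 32544 promoter windows of the same length, and 1 CCAAT box, present in 37.4%, while the Npy1r window held neither, and neither window held the CRE half-site TGACG, present in 20.9%.

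Most of the receptors called between domains were called in glutamatergic nuclei, the class with the most UMIs. Of the 32 members that passed the filter on low counts, 13 differed between aplCoA and pplCoA (edgeR quasi-likelihood test, adjusted p under 0.05), beside 16.5% of all 18832 genes tested. A total of 10 were lower in pplCoA (8.1% of all genes) and 3 were higher (8.45%). The median log2 fold change (pplCoA over aplCoA) was -0.12 over the members tested and -0.01 over all genes. The 6 members that did not pass the filter were Avpr1a, Rxfp3, Cckar, Grpr, Mc3r and Glp1r. The count was 7 without aplCoA replicate 1 (6.68% of all genes) and 7 without pplCoA replicate 2 (6.3%). It was 4 of 11 members when only genes seen in 10% of the nuclei of a domain were tested, the filter of the study (20.9%). As the test sums UMIs over nuclei, fewer nuclei with a receptor and fewer UMIs per nucleus cannot be told apart in it.

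Npsr1, Crhr1, Hcrtr1 and Tacr3 were lower in pplCoA. Npsr1 (chr9:24097996-24316398, GRCm38) held 24.8, 19.0 and 24.6 CPM in the aplCoA pools and 7.59, 3.07 and 1.75 CPM in the pplCoA pools. All aplCoA pools lay above all pplCoA pools, and the log2 fold change was -2.31 ± 0.37 SE (adjusted p = 0.00465), a 4.95-fold difference. After thinning every nucleus to 2000 UMIs, a Npsr1 UMI was expected in 3.44%, 2.33% and 2.89% of aplCoA and in 1.20%, 0.524% and 0.325% of pplCoA glutamatergic nuclei, against 0.170% of microglia. Without pplCoA replicate 1 the log2 fold change was -3.14. Crhr1 held 14.1, 11.6 and 12.8 CPM against 9.27, 7.32 and 6.84 CPM (-0.63 ± 0.13, adjusted p = 0.0109). Its groups did not overlap, and the adjusted p was 0.0587 without aplCoA replicate 1 and also above 0.05 without pplCoA replicate 2. Hcrtr1, the orexin receptor selective for orexin A, held 1.24, 0.815 and 1.26 CPM against 0.571, 0.231 and 0.0712 (-1.68 ± 0.45, adjusted p = 0.0304). It rested on 218 UMIs in the class and passed in 1 of 6 fits that left out a pool, the one without pplCoA replicate 1. Its adjusted p was 0.118 without pplCoA replicate 2. Tacr3 held 2.91, 2.08 and 3.55 CPM against 1.36, 1.13 and 1.46 (-1.04 ± 0.22, adjusted p = 0.012), and passed in 4 of 6 such fits, with 0.0617 without pplCoA replicate 2. Free RNA, which is shared by all nuclei of a library, held 13.8, 8.68 and 12.8 CPM of Npsr1 in aplCoA and 11.7, 3.82 and 2.83 in pplCoA, so the domains overlapped there. They overlapped for Tacr3 too. For Hcrtr1 they did not, with 3.18, 0.738 and 3.74 CPM in aplCoA free RNA and 0.271, 0.166 and 0.566 in pplCoA. Nor did they for Crhr1, with 9.72, 8.86 and 7.65 against 6.24, 7.48 and 4.53 CPM. OPCs, the next class after the neurons, held 6.52 ± 2.07 CPM of Npsr1, more than pplCoA replicates 2 and 3 held in glutamatergic nuclei.

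Prlr, Rxfp1 and Mc4r were lower in pplCoA too. Prlr (chr15:10177238-10349180) held 18.6, 9.78 and 18.5 CPM in aplCoA and 5.73, 1.33 and 2.42 CPM in pplCoA, with no overlap (log2 fold change -2.16 ± 0.41 SE, adjusted p = 0.00799). Without pplCoA replicate 1 the value was -3.01. Thinned to 2000 UMIs, a Prlr UMI was expected in 3.86%, 1.96% and 3.63% of aplCoA and in 1.29%, 0.311% and 0.548% of pplCoA glutamatergic nuclei, against 0.0647% of microglia. Rxfp1 (chr3:79641611-79737880) held 14, 15.4 and 13.3 CPM against 4.64, 3.09 and 3.77 CPM (-1.79 ± 0.15, adjusted p = 0.00138), and the pools of a domain lay close together. Mc4r, which binds melanocortins and limits feeding in the hypothalamus, was a low-count member with 190 UMIs in the class. Its mean was highest in OPCs, at 1.11 ± 0.654 CPM, against 0.596 ± 0.488 in glutamatergic nuclei. In glutamatergic nuclei it held 1.20, 0.693 and 1.12 CPM against 0.313, 0.174 and 0.0712 CPM, again without overlap (-2.23 ± 0.39, adjusted p = 0.00609), while free RNA in the same pools held 1.41, 0.923 and 3.59 CPM against 1.36, 1.33 and 1.27 CPM. These 3 receptors passed in all 6 fits that left out a pool.

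Less firmly, Galr1, Calcr and Sstr3 were lower as well. Galr1 held 3.70, 1.83 and 2.65 CPM in aplCoA against 1.31, 0.636 and 0.855 CPM in pplCoA (log2 fold change -1.45 ± 0.30 SE, adjusted p = 0.0115), and lost the call without aplCoA replicate 1 (0.0637) and without pplCoA replicate 2. Calcr held 0.835, 0.611 and 0.501 CPM against 0.387, 0.145 and 0.214 CPM (-1.24 ± 0.38, adjusted p = 0.0493), passed in 2 of 6 such fits, had an adjusted p of 0.222 without aplCoA replicate 1 and was not called by DESeq2. The somatostatin receptor Sstr3 held 2.05, 1.71 and 1.81 CPM against 1.22, 0.723 and 1.07 CPM (-0.80 ± 0.22, adjusted p = 0.0375), passed in 1 of 6 and had 0.139 without pplCoA replicate 2. With all pools included, the groups did not overlap for any of these 3.

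Trhr, Ntsr1 and Vipr1 were higher in pplCoA. Trhr (chr15:44196135-44235912) held 42.6, 30.0 and 39.6 CPM in aplCoA and 50.1, 83.6 and 94.9 CPM in pplCoA (log2 fold change 1.10 ± 0.21 SE, adjusted p = 0.00768). Replicate 1 of pplCoA was nearest the aplCoA pools, and without it the value was 1.34. In free RNA the domains did not overlap either, with 29.5, 22.0 and 24.0 CPM in aplCoA and 39.1, 54.7 and 53.1 CPM in pplCoA, while microglia held a mean of 2.33 CPM. The thinned share of glutamatergic nuclei with a Trhr UMI was 7.06%, 5.10% and 7.09% in aplCoA and 8.17%, 14% and 15.6% in pplCoA, against 0.600% of microglia. Ntsr1 (chr2:180499976-180544980), the neurotensin receptor of neurons, held 5.87, 5.95 and 5.98 CPM against 8.73, 14.4 and 12.8 CPM (1.09 ± 0.17, adjusted p = 0.0046). Vipr1 held 12.8, 11.6 and 11.2 CPM against 16.7, 15.7 and 16.2 CPM, a smaller difference with tight pools (0.53 ± 0.09, adjusted p = 0.00518). None of the 3 overlapped between domains, and each passed in all 6 fits that left out a pool.

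**Figure D3:**
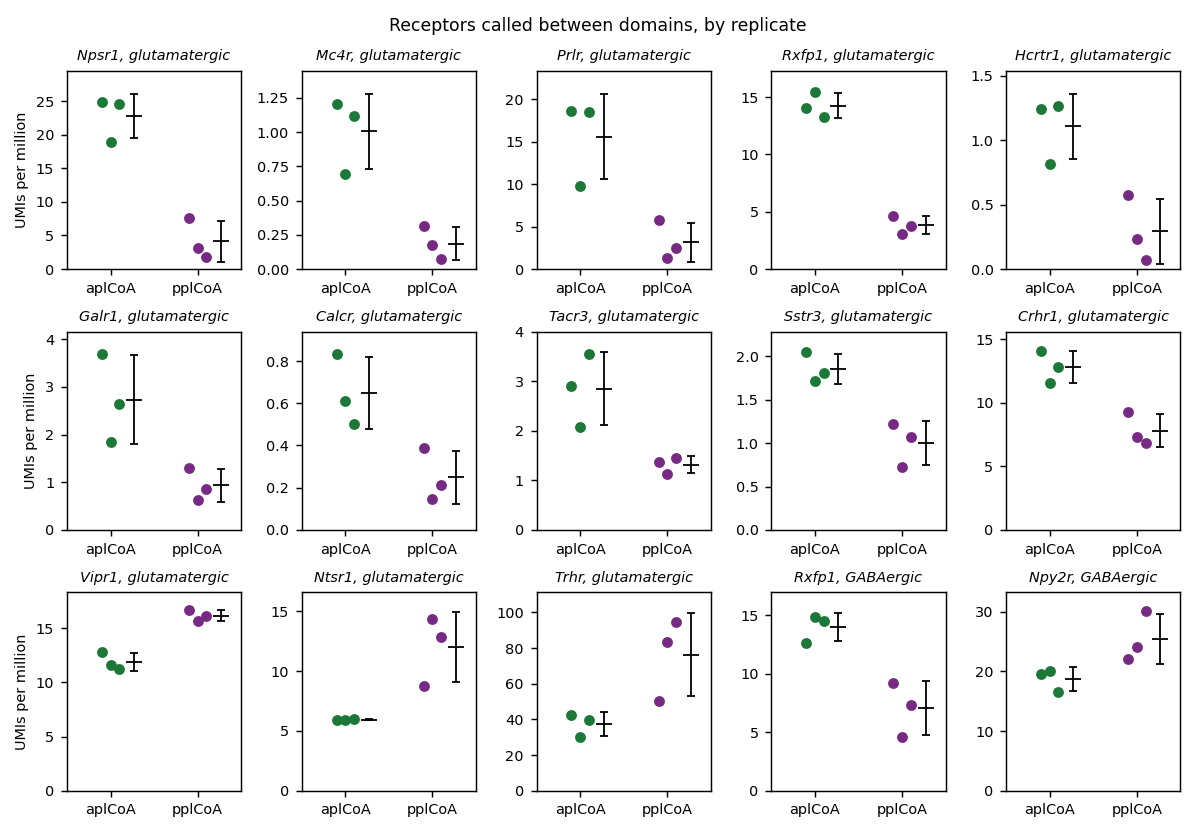
CPM of each receptor that passed the test between domains, by replicate (green points, 3 aplCoA pools, purple points, 3 pplCoA pools), with mean and SD as bars, for 13 receptors in glutamatergic and 2 in GABAergic nuclei. In every panel the pools of the domains do not overlap, but the receptors were picked by a test on these same pools. For Npsr1 the aplCoA pools sit between 19.0 and 24.8 CPM and the pplCoA pools between 1.75 and 7.59 CPM.

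The 19 members tested that did not pass had log2 fold changes between -0.67 (Tacr1) and 1.15 (Sstr4), and 14 of them lay within 0.3 of 0, among them Oxtr (0.06 ± 0.23 SE), Npy1r (-0.15 ± 0.11), Npy5r (-0.03 ± 0.12), Sstr2 (0.0025 ± 0.12), Hcrtr2 (0.05 ± 0.11) and Cckbr (0.19 ± 0.12). Across the 13 receptors that passed, pplCoA replicate 1 was the pplCoA pool nearest to aplCoA in 11. Without it the share of all genes called was 22.2% and 17 members passed, among them the tachykinin receptor Tacr1 (log2 fold change -0.93, adjusted p = 0.00287), Npy2r (1.23, adjusted p = 0.000596) and Sstr4 (1.53, adjusted p = 0.00385), which had adjusted p values of 0.0591, 0.0727 and 0.0683 with all pools. Expected shares of nuclei with a UMI after thinning did not overlap between domains for 16 of the 32 members tested, against 38.2% of all genes tested. The 13 receptors that passed were among them, but these shares come from the same UMIs as the test. A 3 against 3 exact permutation test cannot go below p = 0.1 for such a share, and the median depth before thinning was 12228 UMIs in glutamatergic nuclei and 3182 UMIs in microglia. Markers of other classes moved with the domain in glutamatergic nuclei: the summed level of 5 VLMC markers was 4.23 to 6.68 CPM in aplCoA and 8.31 to 20.5 CPM in pplCoA, 5 NFOL markers gave 46.5 to 83.4 and 83.9 to 116 CPM, and 5 ABC markers gave 4.81 to 6.82 and 3.92 to 4.60 CPM. The ranges of 6 GABAergic markers, 10.2 to 17.8 and 4.24 to 10.3 CPM, overlapped slightly. Among the 5 VLMC markers, Dcn was also a leading gene of glutamatergic cluster 8, with 11 nuclei in aplCoA and 1013 in pplCoA. The sum of VLMC markers can therefore not be read as RNA of VLMCs alone. VLMCs held a mean of at most 0.690 CPM of Npsr1, Prlr, Rxfp1, Trhr, Ntsr1, Mc4r and Galr1, while their Hcrtr1 mean of 0.740 ± 1.10 CPM was close to the glutamatergic 0.699 CPM. In free RNA 9 of the 32 members tested did not overlap between domains, against 8.6% of all genes tested, and 6 of the 9 were among the 13 that passed (Trhr, Rxfp1, Prlr, Hcrtr1, Crhr1 and Galr1). The part of these markers and of free RNA in the receptor differences was not tested.

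The share of glutamatergic nuclei in each cluster was compared between domains. Cluster 2, the highest for Rxfp1, Mc4r, Tacr3 and Calcr, made up 22.3%, 15.1% and 16.2% of glutamatergic nuclei in aplCoA and 4.50%, 0.630% and 0.402% in pplCoA. Cluster 7, the highest for Prlr, Galr1 and Hcrtr1, made up 14.3%, 11.5% and 11.3% against 4.59%, 0.042% and 0.0%. Cluster 9, the highest for Npsr1, made up 5.89%, 3.11% and 3.29% against 1.04%, 0.0% and 0.0%. Cluster 8, the highest for Trhr, made up 0.120%, 0.0634% and 0.0562% against 2.60%, 19.6% and 20.3%. When each cluster was given one level over all pools and only the mix was allowed to vary, the log2 difference was -2.24 for Npsr1 (measured from mean CPM, -2.46), -1.78 for Rxfp1 (-1.89), -2.24 for Prlr (-2.30), 0.84 for Trhr (1.03) and 0.88 for Ntsr1 (1.01). Mc4r stood further off, with -1.71 from the mix and -2.44 measured, and Nmbr, which did not pass the test, had 0.54 from the mix and -0.03 measured. For a cluster that lies almost wholly in one domain, its mix and its level cannot be told apart.

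**Figure D4:**
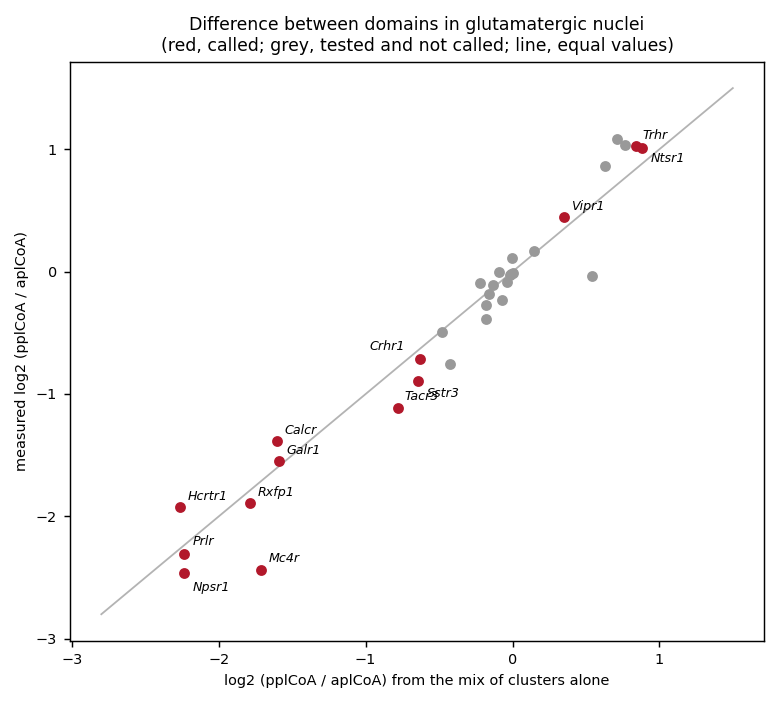
Measured log2 ratio of pplCoA over aplCoA in glutamatergic nuclei (y axis) against the log2 ratio given by the mix of clusters alone (x axis) for the 32 receptors tested (red, called, grey, not called, line, equal values). Most points lie near the line, with Mc4r below it (-1.71 from the mix, -2.44 measured) and Nmbr far from it among the uncalled receptors (0.54 and -0.03).

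Single glutamatergic clusters were compared between domains as well. Clusters 1, 3 and 4 held at least 20 nuclei in every pool, and the quasi-likelihood test called 0 of 21, 20 and 18 members tested, beside 1.4%, 0.93% and 0.134% of all genes. Unadjusted p values under 0.05 were found for 5, 2 and 3 members, beside 17.4%, 11.6% and 11.8% of all genes. DESeq2 called 1, 0 and 0, the 1 being Nmbr in cluster 1 (log2 fold change -1.58, adjusted p = 0.0231), where it called 4.52% of all genes. With the replicate number as a block, the quasi-likelihood test called Prlr in cluster 3 (-1.74 ± 0.28 SE, adjusted p = 0.000448, beside 2.68% of all genes), against -1.15 ± 0.49 (adjusted p = 0.348) without the block. In cluster 4 Prlr had the opposite sign, at 2.72 ± 0.68 (adjusted p = 0.109). Without pplCoA replicate 1 the edgeR test called 4, namely Ntsr1 in cluster 1 (log2 fold change 0.84) and Tacr1 (-1.66), Prlr (3.14) and Trhr (0.55) in cluster 4 (7.19% and 3.88% of all genes in these clusters), and without aplCoA replicate 1 it called Hcrtr2 (-1.68), Nmbr (-1.93) and Trhr (0.67) in cluster 1 (2.56%).

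In GABAergic nuclei Rxfp1 and Npy2r passed between domains. Of 25 members tested, 2 passed, beside 7.34% of all 14430 genes, 1 lower (3.09% of all genes) and 1 higher (4.25%), and none passed without pplCoA replicate 2 (2.95% of all genes). The 13 members that did not pass the filter were Avpr1a, Rxfp2, Rxfp3, Sstr3, Sstr4, Cckar, Galr1, Hcrtr1, Mc3r, Mc4r, Glp1r, Calcr and Lepr. Rxfp1 held 12.7, 14.9 and 14.5 CPM in aplCoA and 9.18, 4.61 and 7.31 CPM in pplCoA (log2 fold change -0.84 ± 0.20 SE, adjusted p = 0.0161), with no overlap, and had an adjusted p of 0.0699 without pplCoA replicate 2. Npy2r, a receptor that restrains transmitter release, held 19.6, 20.1 and 16.4 CPM against 22.1, 24.0 and 30.1 CPM (0.49 ± 0.14, adjusted p = 0.0495), and it passed in 1 of 6 fits that left out a pool, with an adjusted p of 0.23 without pplCoA replicate 3. With the replicate block its adjusted p was 0.0821 and with DESeq2 0.0820, so both ended the call. Grpr held 8.40, 10.9 and 9.29 CPM against 10.7, 14.8 and 16.7 CPM and did not pass (adjusted p = 0.059), and without pplCoA replicate 1 its adjusted p was 0.00707. The shares of the clusters with the highest level of Rxfp1 and of Grpr are given without a test. Cluster 7 (Rxfp1) made up 7.79%, 12.8% and 10.6% of GABAergic nuclei in aplCoA and 5.19%, 1.06% and 0.0% in pplCoA. Cluster 3 (Grpr) made up 13.7%, 7.87% and 11.1% against 16.7%, 24.5% and 24.5%. The paper, with its own subtypes, reported that no GABAergic subtype varied significantly between the domains. The mix of clusters alone gave a log2 difference of -0.34 for Rxfp1, against -0.99 measured from mean CPM, 0.30 for Npy2r, against 0.44, and 0.81 for Grpr, against 0.56. The 23 members that did not pass had log2 fold changes between -0.52 (Sstr1) and 0.62 (Grpr). The orexin receptor Hcrtr2 held 92.3 to 111 CPM in aplCoA and 103 to 125 in pplCoA, with overlap. Among the markers of other classes, 5 NFOL markers summed to 24.9 to 27.7 CPM in aplCoA and 38.5 to 48.0 CPM in pplCoA GABAergic nuclei and 5 macrophage markers to 1.82 to 4.59 and 1.02 to 1.75 CPM, while the 6 GABAergic markers themselves summed to 1295 to 1347 and 1136 to 1173 CPM, and their part was not tested.

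Whether a receptor's change between domains differed between the neuron classes was tested as an interaction in one fit over both classes. It passed for 5 of 35 members, beside 3.38% of all genes, 4 with the higher value in GABAergic nuclei (2.5% of all genes) and 1 with the lower (0.88%). The count was 1 without aplCoA replicate 1 and 3 without aplCoA replicate 3 or pplCoA replicate 2, beside 1.58%, 2.21% and 1.32% of all genes. Npsr1 had the smallest adjusted p of the 5. In GABAergic nuclei it held 48.6, 31.0 and 48.7 CPM in aplCoA and 35.4, 60.2 and 35.8 CPM in pplCoA, which overlapped, and the change exceeded that in glutamatergic nuclei by 2.37 ± 0.38 on the log2 scale (adjusted p = 0.00509, below 0.05 in 6 of 6 fits that left out a pool). Ntsr1 in GABAergic nuclei held 6.82, 4.17 and 5.57 CPM against 3.94, 5.07 and 4.47 CPM, a difference of changes of -1.37 ± 0.23 (adjusted p = 0.00611, and 0.0637 without aplCoA replicate 1). Rxfp1, Prlr and Ghr had differences of 0.92 ± 0.17, 2.16 ± 0.51 and 0.32 ± 0.07, with adjusted p of 0.0122, 0.0377 and 0.0332. They passed in 4, 2 and 1 of 6 such fits. Without aplCoA replicate 1 the adjusted p was 0.0821, 0.183 and 0.207, and without pplCoA replicate 1 that of Rxfp1 and Prlr was 0.0531 and 0.055.

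**Figure D5:**
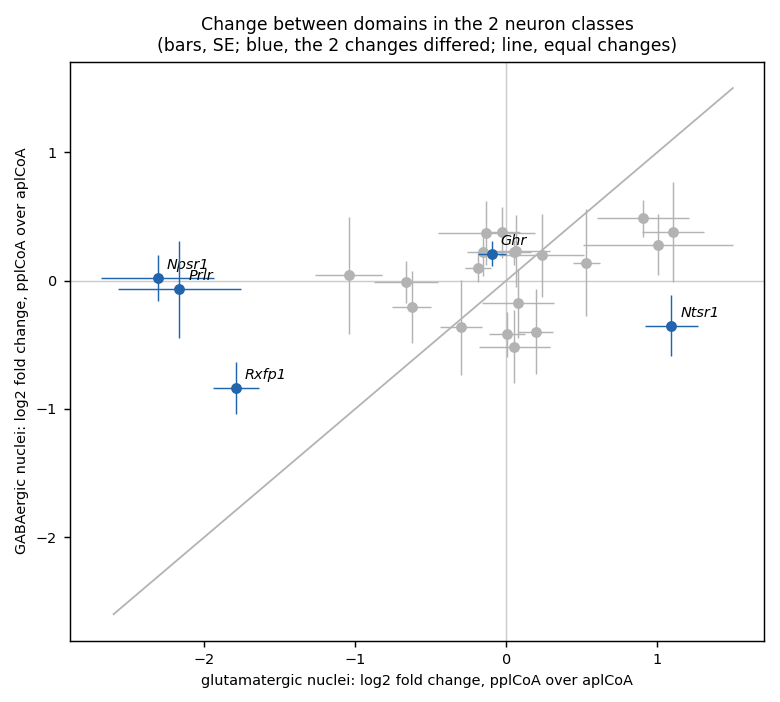
Log2 fold change (pplCoA over aplCoA) of receptors tested in both neuron classes, glutamatergic nuclei on the x axis and GABAergic nuclei on the y axis, with SE bars (blue, the changes differed in the interaction test, line, equal changes). Npsr1 and Prlr lie far to the left near 0 on the y axis, and the interaction values are 2.37 and 2.16.

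In 5 non-neuronal classes no receptor passed between domains without a block, and NFOLs, ABCs, macrophages and mural cells were not tested. The quasi-likelihood test called 0 of 6 members in astrocytes (0.415% of all genes), 0 of 7 in OPCs (4.29%), 0 of 1 in MOLs (1.45%), 0 of 4 in microglia (0.0%) and 0 of 4 in VLMCs (0.0%). DESeq2 called 0 in each, beside 1.75%, 3.5%, 2.19%, 0.0% and 0.0385% of all genes, and gave no member an adjusted p in MOLs. In the quasi-likelihood test 1 member had an unadjusted p under 0.05. That was Ntsr2 in astrocytes, where 12.1% of all genes had one, with 263, 258 and 293 CPM in aplCoA and 195, 194 and 215 CPM in pplCoA (log2 fold change -0.37 ± 0.10 SE, adjusted p = 0.13), whose pools did not overlap, and which was called with the replicate block (-0.37 ± 0.08, adjusted p = 0.0198, beside 3.93% of all genes). Lepr in VLMCs differed by -0.03 ± 0.17 and Calcrl in OPCs by -0.19 ± 0.10 (adjusted p = 0.986 and 0.309). Vipr1 and Rxfp1, higher and lower in pplCoA glutamatergic nuclei, had -0.24 ± 0.27 and 0.17 ± 0.32 in microglia (adjusted p = 0.974 and 0.981).

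Lists of peptide ligands and of signalling partners were set beside the receptors. Of 37 ligand genes, 19 were tested in glutamatergic nuclei, where 1 was higher and 3 lower in pplCoA (8.45% and 8.1% of all genes), with a median log2 fold change of -0.42 beside -0.01 over all genes. Trh, the ligand of Trhr, was higher, at 0.206 ± 0.184 against 1.82 ± 1.52 CPM (n = 3 each, log2 fold change 2.83 ± 0.82 SE, adjusted p = 0.0419). Nts, the ligand of Ntsr1 and Ntsr2, was lower, at 2.41 ± 0.356 against 0.629 ± 0.162 CPM (-1.80 ± 0.24, adjusted p = 0.00296). Adcyap1, which encodes PACAP, and Cck were lower too, with log2 fold changes of -1.48 ± 0.32 and -0.73 ± 0.21 (adjusted p = 0.0132 and 0.0387). In GABAergic nuclei 10 ligands were tested and 2 were lower (3.09% of all genes): Cort, a somatostatin relative, at 11.4 ± 1.67 against 3.60 ± 0.580 CPM (-1.52 ± 0.22, adjusted p = 0.000992), and Npy, at 50.2 ± 2.62 against 29.3 ± 10.4 CPM (-0.77 ± 0.19, adjusted p = 0.0169). None was higher there.

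The 4 further lists are read beside the same shares of all genes, 8.45% higher and 8.1% lower. Among 5 accessory proteins, all tested in glutamatergic nuclei, Ramp1, the partner of Calcrl, was higher in pplCoA (0.58 ± 0.09) and Mrap2, a partner of Mc4r, was lower (-0.45 ± 0.12). Of 10 G protein alpha subunits, Gnas and Gnai2, which raise and lower cyclic AMP, were both lower (-0.63 ± 0.14 and -0.50 ± 0.14). Of 7 receptor kinases and arrestins, Grk3 and Grk5 were higher (0.53 ± 0.12 and 0.32 ± 0.10) and Arrb1 lower (-0.44 ± 0.08). Of 8 genes of cytokine receptor signalling tested, out of 9, Socs2, an inhibitor of growth hormone signalling, was higher (0.91 ± 0.20) and Stat5b, which acts below Ghr and Prlr, was lower (-0.37 ± 0.08). Adjusted p values of these genes ran from 0.00429 for Ramp1 to 0.0493 for Grk5. Trh, Cck and Grk5 fell outside the 10 genes taken by adjusted p and are named because the counts are small, after their values were seen. In GABAergic nuclei 1 gene of these 4 lists passed, Gna11, an alpha subunit that mobilises calcium (-0.54 ± 0.15, adjusted p = 0.034), beside 7.34% of all genes.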

How the data were processed

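Nuclei of the mouse aplCoA and pplCoA were measured by droplet single-nucleus RNA sequencing (10x 3′ chemistry) in 7 libraries, with 3 pools of mice per domain. The deposited values are raw UMI counts per gene and barcode. The authors' methods name Cell Ranger 5.0.0, with exonic and intronic reads counted against mm10, while the headers of the count files name Cell Ranger 4. They deposited all barcodes, before their own filters on nuclei. The depth was 50812605 to 129624583 UMIs per library.

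From these counts, barcodes with at least 1000 genes were kept (52201), then those within limits on UMIs and on mitochondrial and ribosomal shares (50493), and doublets scored against simulated pairs were removed (4117). A gene floor and this score stand in for the study's empty-droplet test and doublet caller. Nuclei were clustered on Pearson residuals of 5000 variable genes without the receptors (scanpy 1.11.5, 50 components, 15 neighbours, Leiden resolution 1.0, neurons 0.3) and classes were named from fixed marker lists. Another 20 nuclei with endothelial markers were set aside, and 169 stayed unnamed.

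Counts were summed per pool and class and tested in edgeR 4.0.16 (quasi-likelihood, TMM, filterByExpr), with adjusted p (Benjamini-Hochberg) taken over all genes tested and under 0.05 called. The 2 neuron classes of a pool shared a block in the comparison of classes and in the interaction. The study's filter, genes in 10% of nuclei, and DESeq2 1.42.0 were alternatives, as were RLE size factors, no filter, the replicate block, each pool or library left out, and classes from marker UMIs. Tests ran on simulated data first. Shares were thinned to 2000 UMIs per nucleus as an expectation, and shallower nuclei were left out of them. Levels and shares carry counting error as well as pool error, and no interval was computed for single nuclei.

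The 38 receptors and all lists were chosen with earlier results of these data known. Per-pool values are given for receptors called between domains and for at most 12 others with the largest ratio between classes or clusters, and at most 10 genes of the ligand and signalling lists are named in a class by adjusted p. Replicate numbers did not pair the domains in glutamatergic or GABAergic nuclei (correlations of deviations at most 0.092). The other classes and single clusters were not checked for pairing. With the replicate block the share of all genes called rose from 0.415% to 3.93% in astrocytes and from 4.29% to 5.58% in OPCs. It rose from 1.45% to 3.97% in MOLs, from 0.0% to 0.462% in microglia and from 0.0% to 0.549% in VLMCs. Promoter letters and gene positions come from RefSeq and GENCODE tables of GRCm38.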

Additional observations from a re-analysis of the deposited data

Results flagged for a closer look

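The change between domains differed between GABAergic and glutamatergic nuclei for 5 of 35 receptors, beside 3.38% of all genes, by the interaction test over both classes (edgeR, Benjamini-Hochberg adjusted p under 0.05). On the log2 scale the change in GABAergic nuclei minus that in glutamatergic nuclei was 2.37 ± 0.38 SE for Npsr1 (adjusted p = 0.00509), -1.37 ± 0.23 for Ntsr1 (0.00611), 0.92 ± 0.17 for Rxfp1 (0.0122), 0.32 ± 0.07 for Ghr (0.0332) and 2.16 ± 0.51 for Prlr (0.0377). Npsr1 kept an adjusted p under 0.05 in all 6 fits that left out a pool, Ntsr1 in 5, Rxfp1 in 4, Prlr in 2 and Ghr in 1, and without aplCoA replicate 1 Npsr1 alone was called.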

How the results depend on the processing

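Each count is followed by the share of all genes called in the same fit. In glutamatergic nuclei 13 receptors were called between domains (16.5%). The count was 4 with genes seen in 10% of nuclei (20.9%), 6 with an adjusted p under 0.01 and 1.5-fold (4.7%), and 7 to 17 with each pool left out (6.3% to 22.2%). In GABAergic nuclei 2 were called (7.34%). The count was 1 with DESeq2 (6.12%), 1 with genes seen in 10% of nuclei (10.1%), 0 with the stricter limits (2.11%), 0 and 1 with library 1 or 2 of aplCoA replicate 1 alone (2.18% and 6.08%), 4 with classes from marker UMIs (7.29%), 1 over all barcodes (4.9%), 1 with endothelial nuclei kept (7.04%), and 0 to 3 with each pool left out (2.95% to 8.4%). Within glutamatergic clusters 1, 3 and 4, 0 were called (1.4%, 0.93% and 0.134%), against 1 with DESeq2 (in cluster 1, 4.52%). The count was 4 without pplCoA replicate 1 (7.19% in cluster 1 and 3.88% in cluster 4). It was 3 without aplCoA replicate 1 (2.56% in cluster 1) and 0 without any other pool. The interaction was called for 5 (3.38%), against 2 without the replicate block (1.32%) and 1 to 6 with each pool left out (1.32% to 7.23%). Prlr between neuron classes changed sign, to 0.14 with classes from marker UMIs (adjusted p = 0.74). The cause of these shifts was not tested.

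The replicate number as a block gave 13 calls in glutamatergic (16.5%) and 1 in GABAergic nuclei (6.7%), 1 in the non-neuronal classes (Ntsr2 in astrocytes, 3.93%) and 1 within glutamatergic clusters (Prlr in cluster 3, 2.68%). Alternatives run after seeing the data were the endothelial nuclei kept in, and those for non-neuronal classes and within clusters. So were those with a pool left out for thinned shares and for cluster levels, and the glutamatergic fit without clusters 12 and 13. Cluster 12 was led by Snhg9, Ptgds and Apoe and was set down as of mixed genes, and the 42 nuclei of cluster 13 all came from aplCoA replicate 3. Over the 44 calls of a receptor in a comparison and 4 receptors with an adjusted p between 0.05 and 0.10, 514 of 609 alternatives kept direction and side of the threshold, 78 lost the call, 16 gained it and 1 changed sign. Over the other 79 tests of a receptor, none called, 73 of 994 alternatives changed sign. Low counts limit Mc4r (190 UMIs in glutamatergic nuclei), Calcr (138) and Hcrtr1 (218).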
